A study of Aspergillus niger with 27 samples.

Results

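Gene expression was compared between mycelium of Aspergillus niger over sugar beet pulp (SBP) compartment 5 and mycelium of the same colonies over glucose compartment 2. The libraries were chosen by their labels, as the second-numbered compartment of the SBP section and of the glucose section on each of 3 plates, which gives 6 of the 27 libraries of the series. Each plate (A, B and C) held 1 colony that was inoculated at the centre and spread over 9 physically separate compartments of liquid medium, with glucose in compartments 1 to 3, SBP in 4 to 6 and wheat bran in 7 to 9. A perforated polycarbonate membrane kept the hyphae out of the medium. The labels say that 1 compartment of each section lies between others with the same carbon source, but do not say which number it has, so the position of compartments 5 and 2 is known only from their numbers. The labels name no strain. Both groups share the species, the colony and the plate, and differ in the carbon source and in the compartment number. Each number holds the same substrate on every plate, so carbon source and place on the plate cannot be told apart. Libraries of a plate come from the same colony, so the plate is the replicate (n = 3).

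Sugar beet pulp is a plant residue rich in pectin, a polysaccharide with a backbone of galacturonic acid and side chains that hold arabinose and galactose. Aspergillus niger lives on such material by secreting enzymes that cut the polymers and by taking up the sugars that are released. Glucose is taken up directly, and in this fungus the repressor CreA lowers many genes for the use of other carbon sources while glucose is present. Genes carry only numbered IDs in the count table, with no symbols beside them, and RefSeq's gene table matched 0 of the 11846. Which of the genes below belong to these pathways is therefore not given, and genes are described by their ID.

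The SBP compartment 5 libraries held 16125705 to 20418778 counts and the glucose compartment 2 libraries 12885056 to 16648022. The 20 most abundant genes of a library took 15.8% ± 1.66 of the counts in SBP 5 and 34.3% ± 5.15 in glucose 2 (SD, n = 3 plates). The scaling factors of the TMM method, which offset such differences in composition, were 1.44 ± 0.0767 in SBP 5 and 0.908 ± 0.142 in glucose 2. Values below are TMM-scaled CPM, that is, counts relative to the scaled total of their library. The part of composition in the results was not tested beyond the choice of scaling given below.

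Mycelium over sugar beet pulp differed from mycelium over glucose in 1091 of 10990 genes tested, or 9.93%. In SBP 5, 464 genes (4.22%) were higher and 627 (5.71%) lower than in glucose 2, by edgeR's quasi-likelihood F-test with the plate as a block and a Benjamini-Hochberg adjusted p under 0.05. Most changes were large: 438 genes rose and 575 fell by 2-fold or more, 178 and 204 by 4-fold or more, and 19 and 16 by 16-fold or more. The median log2 fold change was 1.76 over the genes that rose, -1.67 over those that fell and 0.04 over all genes. Of the genes that rose, 460 were higher in SBP 5 on each of the 3 plates, and of those that fell 626 were lower on each, while 53.4% of all genes had the same direction on all plates. The libraries of both compartments did not overlap for 430 of the genes that rose and 620 of those that fell. Over all genes, 19.1% had every SBP 5 library above every glucose 2 library and 18.6% had every one below. Across genes, the log2 differences of plates A and B correlated with r = 0.612, those of A and C with 0.541 and those of B and C with 0.636, which describes 10990 genes that are not independent.

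The number of genes called depended on the plates, on the scaling and on the libraries in the fit. It was 466 without plate B and 183 without plate C. With scaling by library size alone, 1802 genes were higher and 248 lower in SBP 5, around a median log2 fold change of 0.70 over all genes. Changes are therefore relative to a typical gene, and in these bulk samples fewer hyphae expressing a gene and less of its RNA per hypha cannot be told apart.

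**Figure D1:**
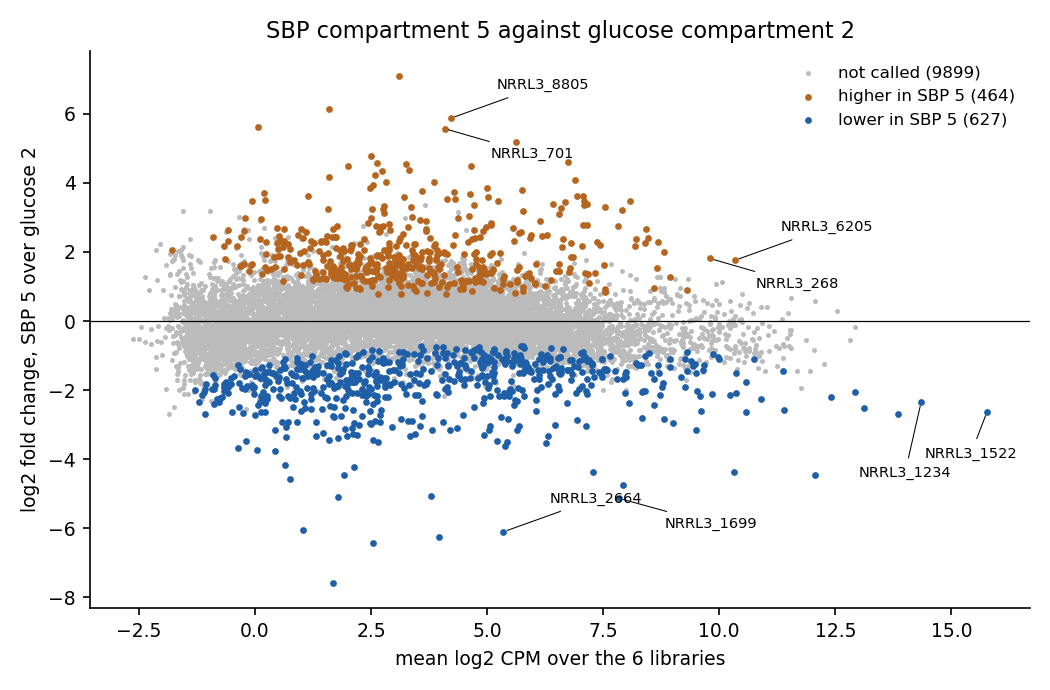
Each point is 1 of 10990 genes, with its mean log2 CPM over the 6 libraries on the x axis and its log2 fold change of SBP compartment 5 over glucose compartment 2 on the y axis. The 464 genes that were higher in SBP 5 and the 627 that were lower are coloured. The 8 labelled genes were chosen among called genes whose mean log2 CPM was at least 4 and that moved alike on every plate. Among these they had the largest fold changes or the largest differences in CPM.

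Taking genes whose mean log2 CPM reached 4, the 2 with the largest rise had low levels over glucose 2, of 1.24 to 4.52 CPM. NRRL3_8805 had 224, 156 and 68.2 CPM in SBP 5 on plates A, B and C, against 3.29, 2.16 and 2.15 CPM in glucose 2. Every SBP 5 library lay far above every glucose 2 library, with a log2 fold change of 5.87 (SE 0.96, edgeR quasi-likelihood adjusted p = 4.45e-04). NRRL3_701 had 151, 163 and 57.3 CPM in SBP 5, against 4.52, 1.24 and 2.56 CPM in glucose 2. Its log2 fold change was 5.57 (SE 1.07, edgeR quasi-likelihood adjusted p = 0.00167), and for both genes plate C had the lowest level in SBP 5.

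These 2 genes also varied between compartments with the same substrate. NRRL3_8805 averaged 34.8 ± 17.0 CPM in SBP 4 and 315 ± 107 in SBP 6, against 15.8 ± 13.9 in glucose 1 and 5.94 ± 4.95 in glucose 3 (SD, n = 3 plates). NRRL3_701 averaged 35.3 ± 6.55 CPM in SBP 4 and 226 ± 180.4 in SBP 6, against 17.6 ± 15.1 in glucose 1 and 7.41 ± 4.35 in glucose 3. The lowest mean level of each among these 6 compartments was in glucose 2. Choosing genes by their rise over glucose 2 favours a low level there. In wheat bran compartment 8, NRRL3_8805 stood at 17.0 ± 8.25 CPM and NRRL3_701 at 4.12 ± 2.45.

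Among the genes that fell, NRRL3_2664 and NRRL3_1699 had the largest fold changes at that level. NRRL3_2664 had 3.89, 6.27 and 5.48 CPM in SBP 5 on plates A, B and C, against 159, 431 and 471 CPM in glucose 2. The groups were far apart on every plate, with a log2 fold change of -6.10 (SE 0.88, edgeR quasi-likelihood adjusted p = 1.1e-04). It was low in all SBP compartments, at 11.2 ± 6.28 CPM in SBP 4 and 4.77 ± 0.230 in SBP 6, against 83.3 ± 24.8 in glucose 1 and 162 ± 109 in glucose 3 (SD, n = 3 plates), and was also low in wheat bran 8, at 6.53 ± 8.47 CPM.

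NRRL3_1699 had 17.9, 47.7 and 64.8 CPM in SBP 5 on plates A, B and C, against 731, 3699 and 984 CPM in glucose 2. The groups did not overlap, and the log2 fold change was -5.14 (SE 1.11, edgeR quasi-likelihood adjusted p = 0.00412). Leaving out plate C ended the call (-5.63). In SBP 4 the gene spanned 37.3, 1882 and 1488 CPM on the same plates, against 50.3, 2967 and 571 CPM in glucose 3, so that those compartments overlapped while SBP 5 and glucose 2 did not. Plate A was the low one in both of those compartments. In SBP 6 the gene averaged 28.5 ± 16.1 CPM, against 2473 ± 1103 in glucose 1 (SD, n = 3 plates). That pair had a log2 fold change of -7.46 (SE 1.24, edgeR quasi-likelihood adjusted p = 9.3e-04). In wheat bran 8 the gene averaged 1591 ± 2074 CPM.

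**Figure D2:**
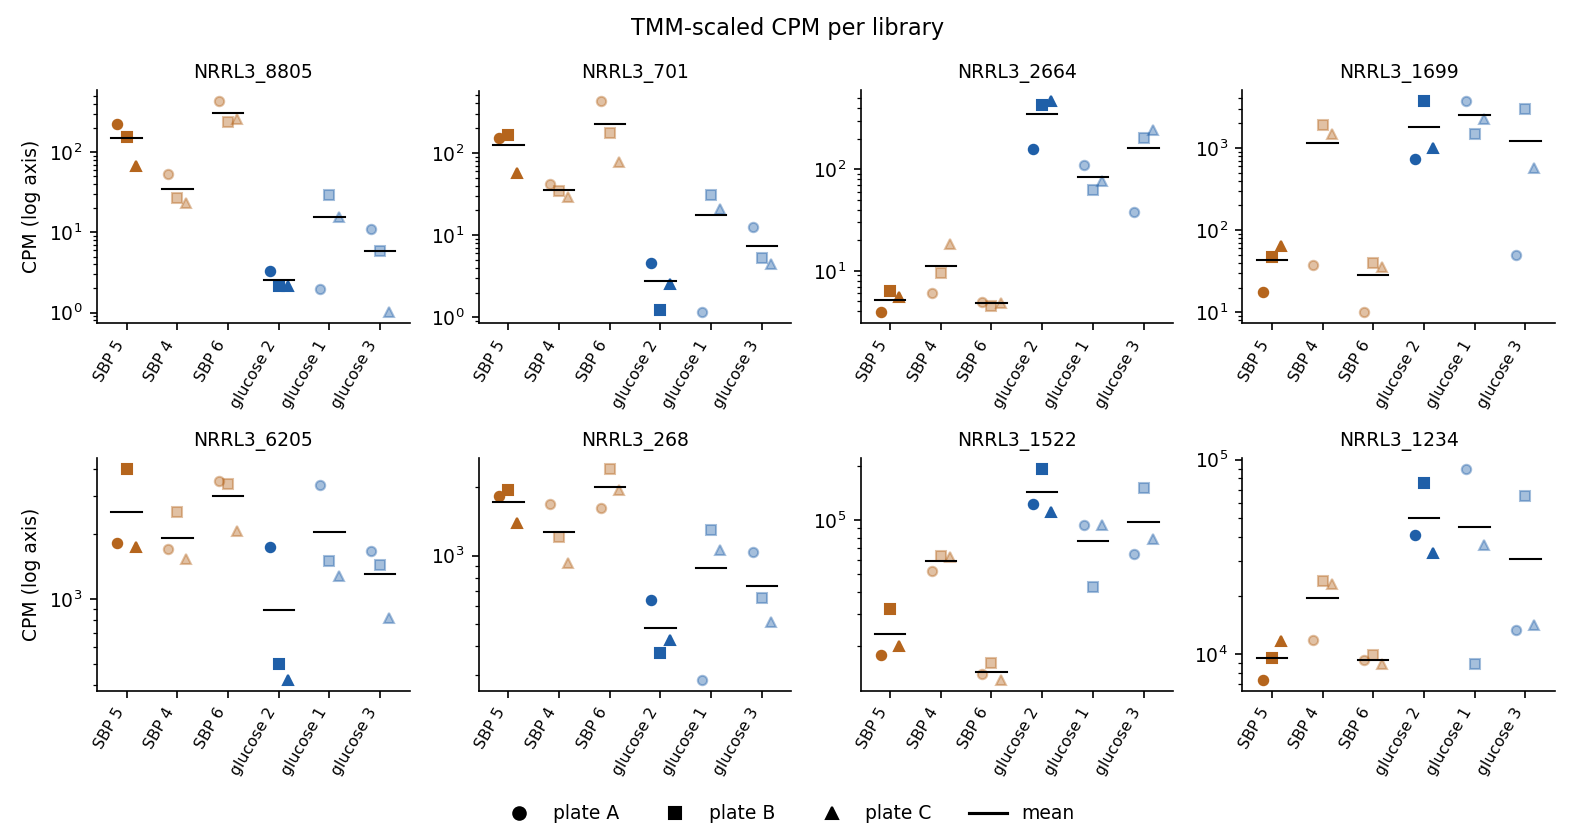
CPM on a log axis for 8 genes in each library of SBP compartments 5, 4 and 6 and glucose compartments 2, 1 and 3, with a symbol for each plate and a line at the mean of 3 plates. In the upper row the SBP 5 and glucose 2 libraries are far apart, as for NRRL3_8805 at 149 ± 77.9 against 2.54 ± 0.655 CPM (SD, n = 3 plates), while SBP 4 and glucose 3 lie closer together.

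The genes with the largest difference in absolute level were much more abundant, and their fold changes were smaller. NRRL3_1522 had 17822, 31812 and 20001 CPM in SBP 5 on plates A, B and C, against 123075, 194345 and 111673 CPM in glucose 2. Every glucose 2 library was several times higher, and the log2 fold change was -2.63 (SE 0.42, edgeR quasi-likelihood adjusted p = 3.21e-04). NRRL3_1234 had 7360, 9519 and 11636 CPM in SBP 5, against 41026, 75476 and 33142 CPM in glucose 2. Its log2 fold change was -2.35 (SE 0.66, edgeR quasi-likelihood adjusted p = 0.0244), and the groups did not overlap. The call of NRRL3_1234 was lost without plate A, at -2.34, and without plate C, at -2.75.

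In the other direction, NRRL3_6205 had 1831, 4035 and 1746 CPM in SBP 5 on plates A, B and C, against 1752, 501 and 423 CPM in glucose 2. The groups overlapped, since SBP 5 on plate C lay below glucose 2 on plate A, and on plate A the log2 difference was only 0.06. The log2 fold change was 1.76 (SE 0.45, edgeR quasi-likelihood adjusted p = 0.0133), and the call was lost on dropping plate B (1.02), plate C (1.67) or the plate block (1.51). NRRL3_268 had 1828, 1942 and 1385 CPM in SBP 5, against 640.2, 375 and 424 CPM in glucose 2. All SBP 5 libraries were above all glucose 2 libraries, with a log2 fold change of 1.81 (SE 0.45, edgeR quasi-likelihood adjusted p = 0.0119), and the call was lost without plate B (1.59) and without plate C (1.87).

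Among the abundant genes that were called, more were lower than higher over sugar beet pulp, while most abundant genes were not called. Of the 136 genes with a mean of 1000 CPM or more over the 6 libraries, 2 rose and 23 fell in SBP 5, which is 1.47% and 16.9% of that class. Between 100 and 1000 CPM, 53 of 1079 genes rose and 105 fell, or 4.91% and 9.73%. Between 10 and 100 CPM, 203 of 4711 genes rose and 210 fell, close to balance. Between 1 and 10 CPM, 194 of 3645 rose and 250 fell, and under 1 CPM, where counts are few, 12 of 1419 rose and 39 fell. With scaling by library size alone, 15 of the same 136 genes rose and 16 fell, and between 100 and 1000 CPM 145 rose and 40 fell. That scaling called 1802 genes higher and 248 lower among all 10990. Against that background, genes that fell still made up a larger share of the 136 than of all genes. The classes rest on the same 6 libraries as the calls, so a high level in 1 compartment alone can place a gene in a high class.

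**Figure D3:**
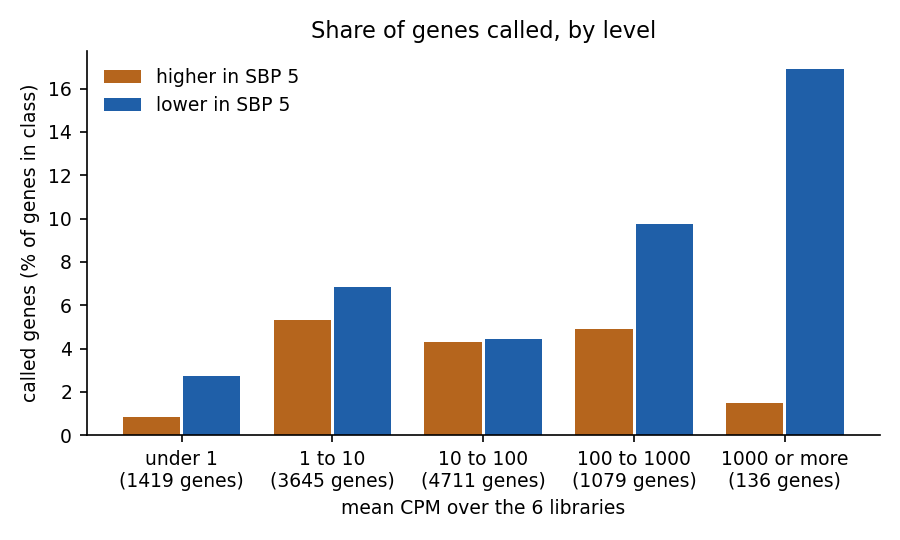
Percentage of genes called higher and lower in SBP compartment 5 than in glucose compartment 2, by mean CPM over the 6 libraries, with the number of genes in each class under the axis. In the highest class 1.47% of 136 genes were higher and 16.9% were lower. When scaled by library size only, 15 of them were higher and 16 lower, against 1802 and 248 of all 10990 genes.

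The genes that fell made up a large part of the RNA over glucose. Together, the 627 genes took 11.9% ± 1.64 of all counts in SBP 5 and 37.3% ± 5.26 in glucose 2 (SD, n = 3 plates). The 464 genes that rose took 5.57% ± 1.13 in SBP 5 and 0.861% ± 0.259 in glucose 2. These shares describe genes that were chosen on the same libraries. In that of the genes that fell, abundant genes weigh heavily. NRRL3_1522 alone held 5414878 counts summed over the 3 glucose 2 libraries, whose totals on plates A, B and C were 13946486, 12885056 and 16648022. Summed over the 3 SBP 5 libraries it held 1744471, with totals of 16670758, 16125705 and 20418778. NRRL3_1234 held 1838593 counts over the glucose 2 libraries and 729891 over those of SBP 5. In the other SBP and glucose compartments, which were not part of the contrast but shared the fit and its estimate of the spread, the genes that fell took 21.3% ± 3.01 in SBP 4 and 9.69% ± 0.975 in SBP 6, against 26.8% ± 7.07 in glucose 1 and 27.3% ± 7.08 in glucose 3. The genes that rose took 3.15% ± 0.368 in SBP 4 and 7.55% ± 2.08 in SBP 6, against 2.14% ± 0.873 in glucose 1 and 1.75% ± 0.479 in glucose 3. For both lists the mean of SBP 4 lay between those of SBP 5 and of glucose 1 and 3.

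Few called genes switched between silence and expression. The rule was less than 1 CPM in all libraries of one compartment and more than 10 CPM in all of the other. Of the 627 genes that fell, 3 were off in SBP 5 and on in glucose 2. Of the 464 that rose, 0 were on in SBP 5 and off in glucose 2.

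Some called genes had neighbouring ID numbers. Of 10372 pairs of consecutive IDs with both members tested, both rose in 70, both fell in 99, and 1 rose and 1 fell in 25. Single genes rose in 4.22% and fell in 5.71% of all genes tested, and whether the pairs exceed what these shares would give was not tested. Runs of 3 or more consecutive IDs called in the same direction numbered 15 for genes that rose and 19 for genes that fell. Whether the numbers follow the order of genes on the chromosomes is not given in the sources used here, and no build or coordinates could be attached to the IDs.

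The longest run that rose held 7 IDs, NRRL3_1736 to NRRL3_1742. NRRL3_1736 had 17.4, 22.6 and 23.1 CPM in SBP 5 on plates A, B and C, against 4.67, 6.28 and 2.56 CPM in glucose 2. The groups did not overlap, with a log2 fold change of 2.20 (SE 0.47, edgeR quasi-likelihood adjusted p = 0.00374). At the other end, NRRL3_1742 was a rare transcript, with 1.59, 2.06 and 1.15 CPM in SBP 5 against 0.230, 0.515 and 0.174 CPM in glucose 2, which rests on 120 and 11 counts in all. Its log2 fold change was 2.43 (SE 0.49, edgeR quasi-likelihood adjusted p = 0.00238), and over the 7 genes the fold changes ran from 1.95 to 3.26. Without plate C the calls of 4 of the 7 genes were lost, among them NRRL3_1742 at 2.35, and without plate B that of 1.

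The longest run that fell held 6 IDs, NRRL3_4196 to NRRL3_4201. NRRL3_4201 was its most abundant member, with 153, 172 and 162 CPM in SBP 5 on plates A, B and C, against 480, 912 and 662 CPM in glucose 2. The groups were separate, and the log2 fold change was -2.02 (SE 0.36, edgeR quasi-likelihood adjusted p = 9.02e-04). NRRL3_4196, at the other end, had 0.992, 1.25 and 1.80 CPM in SBP 5 against 6.05, 11.3 and 10.6 CPM in glucose 2, a log2 fold change of -2.75 (SE 0.38, edgeR quasi-likelihood adjusted p = 7.96e-05). Fold changes in the run went from -3.09 to -1.92. The calls of 3 of the 6 genes were lost without plate C, and that of 1 without plate B and with library size scaling alone.

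**Figure D4:**
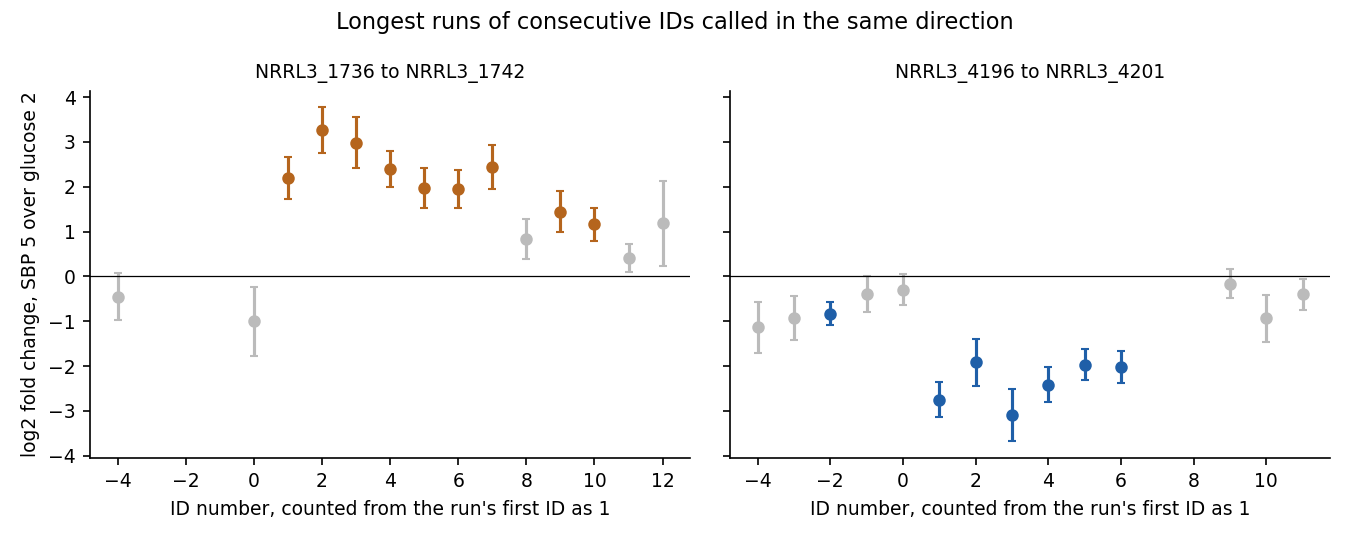
Log2 fold change of SBP compartment 5 over glucose compartment 2, with its standard error, for tested IDs in and next to the longest runs, by ID number counted from the first ID of the run. The 7 IDs on the left lie between 1.95 and 3.26 and the 6 on the right between -3.09 and -1.92, and grey points were not called.

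The other compartments of the same colonies gave a comparison on libraries that were not in the first contrast, though these libraries had entered its fit. Counts of SBP compartments 4 and 6 and of glucose compartments 1 and 3 were summed on each plate. The sums were tested in the same way, in a fit of their own. There, 288 of 11265 genes (2.56%) passed, 134 higher (1.19%) and 154 lower (1.37%) over SBP. The 464 genes that rose in SBP 5 were higher in 462 cases, or 99.6%, and 111 of them (23.9%) passed there too. The 627 genes that fell were lower in 620 cases, or 98.9%, and 141 (22.5%) passed. As a background, 53.9% of all genes were above 0 there. In turn, the shared genes were 82.8% of the 134 that rose in the sums and 91.6% of the 154 that fell. No gene passed in opposite directions. The median log2 fold change in the sums was 0.92 for the genes that rose in SBP 5 and -0.82 for those that fell, with 0.03 over all genes. The count in the sums fell to 3 without plate A, to 123 without plate C, and was 250 without plate B.

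Among the genes that changed most in the sums, NRRL3_8805 (log2 fold change 3.87, SE 0.78) and NRRL3_2664 (-3.91, SE 0.53) were again among the leading ones, together with NRRL3_7460 and NRRL3_4330. NRRL3_7460 had 65.5, 70.3 and 10.9 CPM in SBP 5 on plates A, B and C, against 3.37, 4.74 and 4.59 CPM in glucose 2. Although the groups did not overlap, the log2 fold change of 3.36 (SE 1.12) did not pass, with an edgeR quasi-likelihood adjusted p of 0.058. The gene stood at 290.3 ± 149 CPM in SBP 6 and only 3.27 ± 0.208 in SBP 4, which was below glucose 1 at 5.85 ± 2.06 and glucose 3 at 4.01 ± 0.409 (SD, n = 3 plates). NRRL3_4330 had 6.39, 47.6 and 82.4 CPM in SBP 5, against 1013, 1136 and 499.8 CPM in glucose 2, a log2 fold change of -4.37 (SE 0.87, edgeR quasi-likelihood adjusted p = 0.00207). It was far higher in wheat bran 8, at 13985 ± 2576 CPM.

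Other pairs of an SBP and a glucose compartment gave different numbers of calls. SBP 6 against glucose 1 gave 975 of 10990 genes (8.87%), with 283 higher (2.58%) and 692 lower (6.3%) in SBP 6. SBP 4 against glucose 3 gave 8 (0.0728%), with 1 higher (0.0091%) and 7 lower (0.0637%) in SBP 4. The genes called between SBP 6 and glucose 1 can be followed in the other pairs, whose libraries were not in that contrast, although they shared its fit and its estimate of the spread. The 283 genes higher in SBP 6 had a median log2 fold change of 1.74 for SBP 5 over glucose 2 and 0.58 for SBP 4 over glucose 3. The 692 lower genes had medians of -1.33 and -0.38 for the same pairs. Over all genes the medians were 0.04 and -0.03.

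The same lists can be followed within a substrate, where few members passed. For the 283 genes, the median log2 fold change was 0.49 for glucose 3 over glucose 2 and 0.68 for SBP 5 over SBP 4, with 1 gene called in each. For the 692 genes, the median was -0.33 for glucose 3 over glucose 2, with 0 of them called by edgeR, which called 1 gene in all there. For SBP 5 over SBP 4 it was -0.64, with 11 of them called lower. Among all 10990 genes, SBP 5 over SBP 4 gave 1 gene called higher and 13 lower. Over all genes these contrasts had medians of 0.04 and -0.01.

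**Figure D5:**
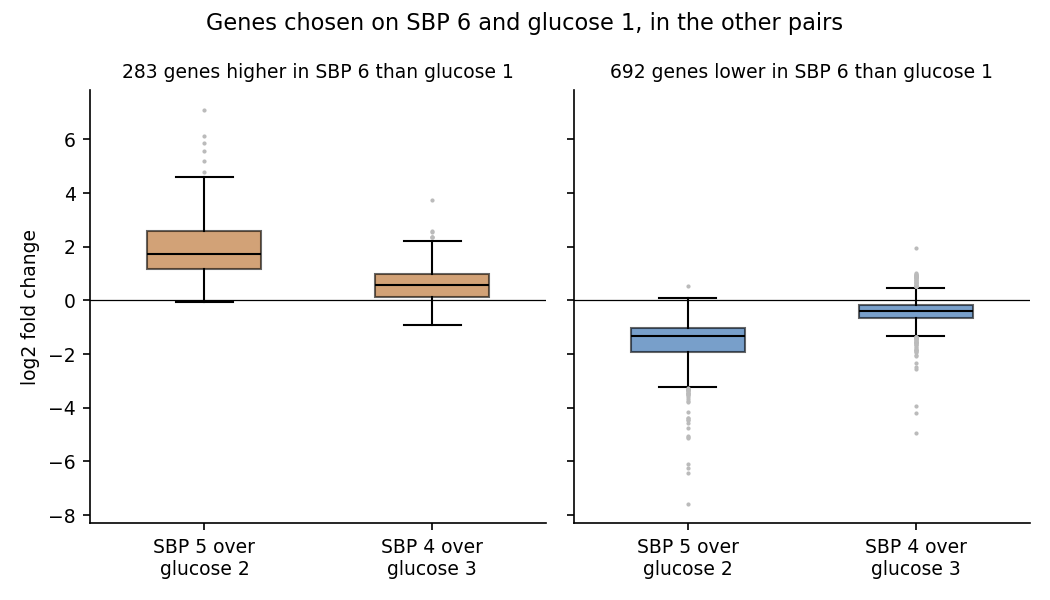
Log2 fold changes of SBP compartment 5 over glucose compartment 2 and of SBP 4 over glucose 3, for the 283 genes called higher and the 692 called lower in SBP 6 than in glucose 1. Boxes span the quartiles with the median as a line, whiskers reach 1.5 times the box, and dots are genes beyond them. The medians are 1.74 and 0.58 for the first list and -1.33 and -0.38 for the second.

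Gene by gene, the tests of the difference between pairs called few genes. The difference between SBP 5 and glucose 2 was set against that between SBP 4 and glucose 3, and 2 of 10990 genes (0.0182%) passed, both more negative for SBP 5 over glucose 2, with 1038 genes at an unadjusted p under 0.05. DESeq2 called 37 in this test. Against the pair SBP 6 and glucose 1, edgeR's quasi-likelihood test called 0 genes, with 219 at an unadjusted p under 0.05 and 2 called by DESeq2. Against the mean of all outer compartments it called 0, with 384 at an unadjusted p under 0.05 and 1 called by DESeq2. Of 10990 genes, a share near 0.05 would fall under that unadjusted p without any difference. The 219 and 384 genes lie below that share, while the 1038 genes of the test against SBP 4 and glucose 3 lie above it. A single gene that passed in SBP 5 over glucose 2 but not in SBP 4 over glucose 3 is still not shown to differ. Only the 2 genes called by the test of the difference are.

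These 2 genes were NRRL3_1766 and NRRL3_4196. NRRL3_1766 had 39.8, 40.0 and 64.3 CPM in SBP 5 on plates A, B and C, against 1113, 1406 and 1294 CPM in glucose 2. In the narrower pair it had 232, 275 and 415 CPM in SBP 4, against 567, 1145 and 863 CPM in glucose 3. The gene was lower over SBP on every plate in both pairs, by a log2 fold change of -4.76 (SE 0.37) in the first and -1.50 (SE 0.33) in the second. The difference was -3.25 (SE 0.46, edgeR quasi-likelihood adjusted p = 0.00406). It stood at 27.6 ± 3.47 CPM in SBP 6, against 708 ± 333 in glucose 1 (SD, n = 3 plates).

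NRRL3_4196, an end of the run above, lies below the level set for naming genes in this test and was added after its values were seen. It had 4.32, 5.72 and 9.35 CPM in SBP 4 on plates A, B and C, against 3.43, 6.13 and 5.10 CPM in glucose 3, where the groups overlapped. Its log2 fold change was 0.42 (SE 0.36) there and -2.75 (SE 0.38) in SBP 5 over glucose 2, a difference of -3.17 (SE 0.52, edgeR quasi-likelihood adjusted p = 0.0177). In SBP 6 the gene stood at 1.03 ± 0.395 CPM, against 9.93 ± 1.78 in glucose 1 (SD, n = 3 plates). The log2 fold change of that pair was -3.35 (SE 0.40, edgeR quasi-likelihood adjusted p = 2.53e-05). Both calls of a difference were lost on leaving out any plate, with differences of -3.41 to -3.14 for NRRL3_1766 and -3.28 to -2.98 for NRRL3_4196, and that of NRRL3_4196 also without the plate block and with library size scaling alone.

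For the genes named first, the differences between pairs were large but did not pass. For NRRL3_8805 the log2 fold change in SBP 5 over glucose 2 exceeded that in SBP 4 over glucose 3 by 3.30 (SE 1.16, edgeR quasi-likelihood adjusted p = 0.454). For NRRL3_1699 the difference was -5.37 (SE 1.40, edgeR quasi-likelihood adjusted p = 0.253), and for NRRL3_2664 it was -2.18 (SE 1.02, edgeR quasi-likelihood adjusted p = 0.519). That these tests did not pass does not show that the pairs respond alike.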

How the data were processed

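The authors deposited 1 table of whole-number read counts, without normalization, for 11846 gene models and 27 libraries of mycelium. The submitters' processing notes list HTSeq and DESeq2, with neither version nor role. Aligner, build, annotation and use of strand were not given in the sources used here, which leaves genes that overlap or have close copies uncertain. Per the labels' protocols, full-length cDNA (SMARTer Ultra Low RNA kit) was fragmented and read on an Ion Proton. No molecular identifiers are named, so precision from counts covers counting error only.

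Counts were tested with edgeR 4.0.16 in R 4.3.3 (TMM, filterByExpr, quasi-likelihood F-test, two-sided, Benjamini-Hochberg). All 27 libraries entered 1 fit with 9 compartment groups and a plate block, with 10990 genes and 16 residual degrees of freedom. Sums of outer compartments had a fit of their own, with 11265 genes and 4. The SE comes from the log2 fold change and its F value, and a prior count of 2 entered log2 CPM. DESeq2 1.42.0 was an alternative.

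The block rests on the labels, which give a plate 1 colony. Deviations from group means of SBP 5 and glucose 2 libraries correlated at 0.0941, -0.212 and 0.00629 on plates A, B and C, and at a mean of 0.126 over 108 pairs of libraries on the same plate. No libraries agreed within sampling noise (lowest chi-square per degree of freedom 29.2).

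Named genes passed at 0.05, averaged at least 4 on the log2 CPM scale and moved alike on 3 plates, taking 2 each way by fold change and, for SBP 5 against glucose 2, 2 by difference in CPM. The ends of the longest runs were named whatever their level, and NRRL3_4196 (for the difference between pairs), NRRL3_8281, NRRL3_8282 and NRRL3_8283 after their values were seen. Lists of pathway genes could not be joined to the IDs and were not used here. The libraries, rules, tests and fit were chosen with earlier results of these data known.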

Additional observations from a re-analysis of the deposited data

Results flagged for a closer look

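For 2 genes the fold change of SBP 5 over glucose 2 differed from that of SBP 4 over glucose 3 by a test of the difference itself. The difference on the log2 scale was -3.25 for NRRL3_1766 and -3.17 for NRRL3_4196. Both calls were lost on leaving out any plate, with edgeR quasi-likelihood adjusted p-values of 0.0627 to 0.999 for NRRL3_1766 and 0.133 to 0.999 for NRRL3_4196. NRRL3_1766 was lower over SBP in both pairs, and NRRL3_4196 in SBP 5 over glucose 2 but with overlapping libraries in SBP 4 and glucose 3.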

How the results depend on the processing

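Of the alternatives to the 1091 genes called between SBP 5 and glucose 2, size factors of DESeq2 in edgeR, no filter on low counts, the fit without the replicate block (856 genes) and the fit without wheat bran 9, chosen after seeing the data (1124 genes), kept the count within 1.5 times. It was 2050 with scaling by library size alone, 1705 with DESeq2, 2067 with the 6 libraries compared alone, 1672 with compartments 2, 5 and 8 alone, and 183 to 811 on leaving out a plate. DESeq2 called 1090 of the 1091 genes, and the fit without plate C 182. For the sums of outer compartments, 288 genes became 589 with DESeq2 and 3 to 250 on leaving out a plate. The difference from SBP 4 and glucose 3 gave 37 genes with DESeq2, 1 with scaling by library size alone, 1 without the replicate block and 0 to 0 on leaving out a plate. That from SBP 6 and glucose 1 gave 2 with DESeq2, 1 without the replicate block and 0 to 2 on leaving out a plate, and that from all outer compartments gave 1 with DESeq2. The cause of these shifts was not tested, except that leaving out a plate leaves fewer libraries. For 25 named genes, 295 values under alternatives held 26 lost calls and 0 changes of sign. The lost calls not given above were those of NRRL3_1738, NRRL3_1740, NRRL3_1741, NRRL3_4197, NRRL3_4198 and NRRL3_4200 without plate C, of NRRL3_1741 and NRRL3_4197 without plate B, and of NRRL3_4197 with scaling by library size alone.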

Other observations

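The gene with the lowest p of all, NRRL3_8282, lies next in number to a gene that changed the other way. Both were chosen after their values were seen. NRRL3_8282 had 0.159, 0.301 and 0.108 CPM in SBP 5 on plates A, B and C, against 21.1, 36.9 and 56.8 CPM in glucose 2, which rests on 14 and 1610 counts in all. Its log2 fold change was -7.57 (SE 0.55, edgeR quasi-likelihood adjusted p = 1.92e-08). It was also close to silent in SBP 4, at 0.665 ± 0.558 CPM, and in SBP 6, at 0.474 ± 0.124, against 6.36 ± 0.414 in glucose 1 and 19.7 ± 10.6 in glucose 3 (SD, n = 3 plates). It was among the 8 genes called between SBP 4 and glucose 3, with a log2 fold change of -4.96 (SE 0.48, edgeR quasi-likelihood adjusted p = 5.71e-06). NRRL3_8281 had 274, 473 and 170.1 CPM in SBP 5, against 8.73, 7.62 and 9.31 CPM in glucose 2, a log2 fold change of 5.19 (SE 0.79, edgeR quasi-likelihood adjusted p = 2e-04). NRRL3_8283, the next ID, averaged 1.70 ± 0.841 CPM in SBP 5 and 1.40 ± 0.242 in glucose 2 (SD, n = 3 plates), with a log2 fold change of 0.19 (SE 0.40) that did not pass. Such neighbours called in opposite directions numbered 25 pairs, with 70 that rose together and 99 that fell together. Whether any of these numbers departs from what the shares of called genes would give was not tested. Whether reads of neighbouring genes were counted by strand is not given in the sources used here.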
